A study of Mus musculus with 16 samples.

Results

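Brown adipose tissue (BAT) of female GDF15 BKO mice was compared with BAT of female WT littermates, to ask which transcripts differ when Gdf15 is deleted in thermogenic adipocytes. The comparison used 8 of the 16 libraries of the series, 4 WT and 4 KO, chosen by the sex and genotype given for each library. All animals were 18-week-old C57BL6/J mice homozygous for a floxed Gdf15 allele (Gdf15 fl/fl) and had spent 12 weeks on a diet with most of its energy from fat. KO mice also carried Tg(Ucp1-cre)1Evdr, in which Cre recombinase is driven by the Ucp1 promoter, while WT mice lacked Cre, so the loss of Gdf15 and the presence of the transgene cannot be told apart here. Of 49119 genes in the deposited transcript table, 12150 had a mean of at least 1 TPM over the 8 libraries and were described, and the other 36969 lay below that minimum. A TPM value is a transcript's length-corrected share of its library. They were divided by 1 factor per library (0.865 to 1.09) so that a few very abundant RNAs did not set the level of all other genes, and are called rescaled TPM below. Differences are given as the log2 fold change of KO against WT, on the scale of log2(rescaled TPM + 0.5).

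BAT burns fatty acids and glucose to make heat. Noradrenaline from sympathetic nerves acts through cAMP to release fatty acids from lipid droplets, the TCA cycle and the respiratory chain oxidise them, and UCP1 lets protons leak back across the inner mitochondrial membrane. Brown adipocytes also make fatty acids from glucose by de novo lipogenesis, and the pyruvate dehydrogenase complex is the gate through which pyruvate reaches both the TCA cycle and that synthesis. GDF15 is a stress-induced hormone of the TGFβ superfamily whose known receptor, GFRAL with its co-receptor RET, is found in the hindbrain.

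The 8 libraries differed in ways that the genotypes do not explain. Transcripts of the mitochondrial genome took 47.3%, 59.1%, 52.0% and 34.5% of TPM in WT libraries 1 to 4, and 41.4%, 49.5%, 52.8% and 45.2% in KO libraries 1 to 4. In WT 4, 17.7% of TPM came from transcripts that could not be matched to a gene and 9.01% from other non-coding RNAs, against 0.343% to 0.448% and 0.975% to 1.55% in the other 7 libraries. Mir6236, an entry annotated as a miRNA, stood at 79663 rescaled TPM in WT 4 and at 347 to 791 elsewhere. The RNA of the signal recognition particle, Rn7s1, was at 1988 in WT 4 and 8.04 to 15.8 elsewhere. Calls and list medians were therefore also computed without WT 4.

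Skeletal muscle RNA was unevenly present. The 18 skeletal muscle markers summed to 2306 rescaled TPM in WT 2, 6044 in KO 3 and 609 in KO 4, against 82.4 to 216 in the other 5 libraries. Their most abundant gene, skeletal α-actin (Acta1), stood at 0.190, 389, 16.2 and 0.312 in WT and at 2.14, 0.598, 1197 and 101 in KO. The tissue label was borne out by the 10 brown adipocyte markers, which summed to between 12392 and 18935 in every library, led by Fabp4. Ucp1 was at 2881, 3079, 3167 and 2923 in WT and at 3493, 3129, 2497 and 4223 in KO. The Y-linked markers Ddx3y, Uty, Kdm5d and Eif2s3y lay below the minimum, and Xist was at 25.4 to 33.9 in all 8.

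**Figure D1:**
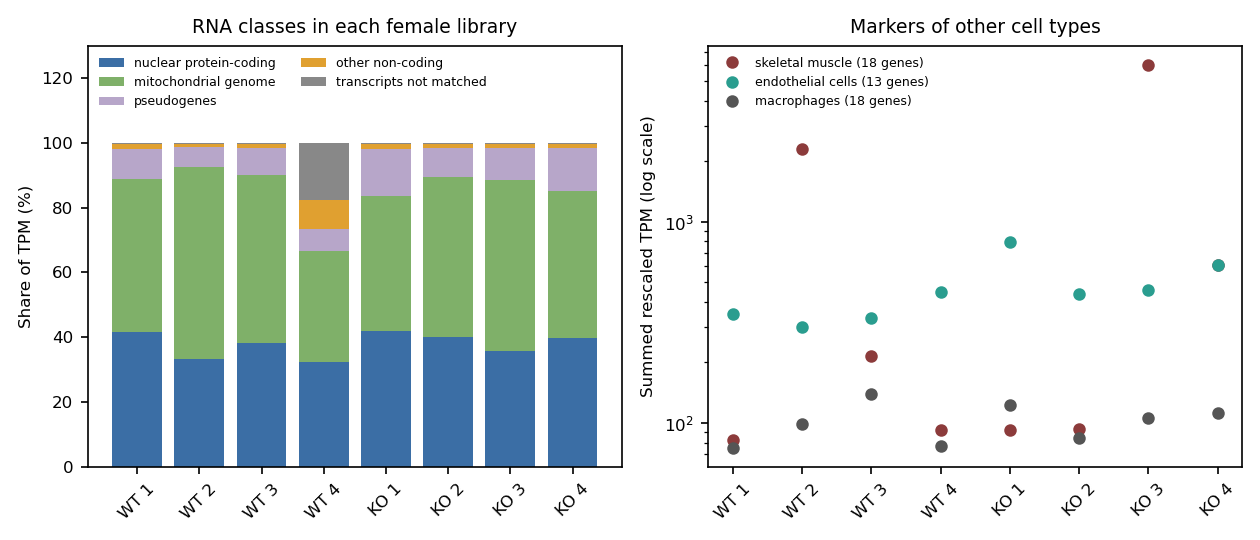
RNA classes and marker content of the 8 female libraries. Left, share of TPM (%) taken by each RNA class, stacked to the full library, where WT 4 alone holds 17.7% of unmatched transcripts. Right, summed rescaled TPM (log scale) of the skeletal muscle, endothelial and macrophage markers, 1 point per library, where skeletal muscle reaches 2306 in WT 2 and 6044 in KO 3, endothelial cell markers 797 in KO 1, and macrophage markers stay between 75.5 and 139 (in KO 4 the skeletal muscle point, 609, lies under the endothelial one, 608).

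Of 5 shares of the libraries compared between genotypes, the share of nuclear protein-coding TPM held by ribosomal protein mRNAs showed no overlap between the groups. It was 4.58%, 3.96%, 4.55% and 3.31% in WT and 6.39%, 4.85%, 4.78% and 6.51% in KO. The means were 4.10% ± 0.60 and 5.63% ± 0.946 (SD, n = 4 each), and the exact two-sided permutation test gave p = 0.0286, which is the smallest p that 4 against 4 allows, and 0.143 after Benjamini-Hochberg adjustment over the 5 shares. Without any 1 WT library the exact permutation p was 0.0857 to 0.143. Pseudogenes, which share sequence with their parent genes, held 7.63% ± 1.43 in WT and 11.7% ± 2.66 in KO (exact permutation p = 0.0571, adjusted 0.143). Shares of mitochondrial genome, nuclear protein-coding and other non-coding RNA had adjusted p of 0.381 or more in the same exact permutation tests.

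Gdf15 itself was scarce in this tissue and was lower in KO. Before rescaling it stood at 0.062, 0.311, 0.170 and 0.290 TPM in WT libraries 1 to 4, and it was listed at 0 in KO 1, KO 2 and KO 4 and at 0.079 in KO 3. KO 3 exceeded WT 1, so the groups overlapped by that pair. The mean difference was -0.43 on the scale of log2(TPM + 0.5), with an exact two-sided permutation p of 0.0571. Gfral was listed at 0 in all 8 libraries. Ret lay between 0.247 and 0.669 rescaled TPM, below the minimum.

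In the limma fit on the 8 libraries, 0 of 12150 genes passed a Benjamini-Hochberg adjusted p of 0.05 (the smallest was 0.167), which is 0% called. At an unadjusted p under 0.05 there were 1212 genes higher in KO (9.98%) and 1265 lower (10.4%). In 650 genes (5.35%) all 4 KO libraries lay above all 4 WT libraries, and in 796 (6.55%) all 4 lay below. The median log2 fold change over all genes was 0.00, and its 5th and 95th percentiles were -0.63 and 0.62. Without any 1 library the counts at an unadjusted p ran from 660 to 1523 higher and from 730 to 1565 lower, both least without KO 1. With the TPM as deposited they were 1413 higher and 662 lower, and the median over all genes was 0.10.

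Taking the spread from all 16 libraries, males included, 248 of 12215 genes passed upward (2.03%) and 320 downward (2.62%) at an adjusted p under 0.05. That fit is an alternative to the one on 8 libraries, and its 568 calls were not stable. It called 579 genes without WT 1, 146 without WT 4, 1942 without KO 2 and 1530 without KO 3, but 5 without WT 2, 3 without WT 3, 2 without KO 1 and 9 without KO 4. It called 5 with the TPM as deposited and 3 with the number that opens each library name as a covariate. The log2 fold change also ran with transcript length and GC content: groups were separate downward in 439 of the 20% of genes with the longest transcripts and in 31 of the 20% with the shortest, and upward in 63 and 181. With a smooth trend on both removed from each library, the fit on 16 libraries called 125 genes. Of 70 genes named below that passed in it, 30 also passed without WT 4, 32 with the trend removed and 24 in both settings. Those 24 were Pdpr, Pfkfb2, Ppara, Hipk2, Ptprd, Grk3, Gsk3b, Itpr1, Sox5, Gm48269 and Apoo-ps, lower in KO, and Neat1, Tut4, Crem, Exoc3l, Fgd5, Gpr160, Xbp1, Tie1, Jam2, Ifi203, Cxcl12, Grb10 and Cdh5, higher in KO. For other genes given as higher or lower with an adjusted p, the setting that ended the call, without WT 4 or with the trend removed, is named beside the gene, and a gene that passed in neither lost it in both. Pdpr and Gm48269 passed whichever female library was left out, and Pdpr passed under all 20 alternatives. These were the only genes called without KO 1, so every other call, among the 24 too, ended in at least 1 setting not named beside the gene. An adjusted p given beside a gene below is limma's, with Benjamini-Hochberg adjustment, from this fit on 16 libraries, and a gene said to have passed did so there, since none did on 8. A gene list is described by its counts and its median beside these background shares.

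The gene with the smallest p was Pdpr, the regulatory subunit of pyruvate dehydrogenase phosphatase, the enzyme that reactivates the pyruvate dehydrogenase complex, and is known to restrain that enzyme. It stood at 9.25, 11.2, 11.1 and 11.9 rescaled TPM in WT and at 1.76, 3.92, 3.75 and 2.99 in KO. The highest KO library, KO 2, was at less than 0.5 of the lowest WT library. The log2 fold change was -1.70 ± 0.208 (SE), with an unadjusted p of 2.43e-05 and an adjusted p of 0.167 in limma on 8 libraries. Pdpr passed in the limma fit on 16 libraries (adjusted p = 0.00334). Its promoter is shown because it holds an E-box, CACGTG, in capitals, which reads the same on both strands and which 7.24% of 27025 RefSeq promoter windows of 300 bases hold (chr8:111094561-111094590, plus strand, GRCm38.p6).
Pdpr: cccaaacaagcgCACGTGcgggccggtccg

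Further genes lower in KO were chosen by smallest p among genes with separate groups, so their separation follows from the choice. They encode a nuclear receptor, a kinase and membrane proteins. Ppara, the receptor that switches on fatty acid oxidation genes, stood at 61.9, 43.2, 61.5 and 58.8 in WT and at 21.9, 32.1, 26.4 and 27.1 in KO (log2 fold change -1.05 ± 0.156 SE). Ptprd, a receptor-type phosphatase, averaged 6.0 ± 0.748 in WT and 3.03 ± 0.543 in KO (SD, n = 4 each), and Grk3, a kinase that desensitises G protein-coupled receptors, 31.2 ± 4.74 and 18.3 ± 1.65. All 3 passed in the limma fit on 16 libraries (adjusted p = 0.0238, 0.0211 and 0.0238), which holds the same female values. The same held for Atp13a3, a P5-type transport ATPase (log2 fold change -0.62), Arfgef2, an exchange factor for ARF GTPases (-0.62), Tia1, a stress granule RNA-binding protein (-0.44), and 4930402H24Rik (-0.92). Atp13a3 and Arfgef2 did not pass with the trend removed, 4930402H24Rik did not without WT 4, and Tia1 passed in neither setting. Hipk2, a nuclear kinase, was at 4.87, 6.64, 6.30 and 17.8 in WT and at 1.03, 1.6, 1.56 and 1.45 in KO, with a log2 fold change of -2.13 (adjusted p = 0.0211 on 16 libraries). WT 4 stood far above the other WT libraries for Hipk2, and without it the log2 fold change was -1.76. The processed pseudogenes Gm48269, Gm5537 and Gm5182 were also among the 12 lower genes of smallest p, and are uncertain because their reads can come from parent genes.

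Among genes higher in KO, chosen in the same way, the abundant one was Neat1, a long non-coding RNA known from nuclear paraspeckles. Its most abundant transcript here was 3004 bases long. Neat1 stood at 271, 265, 299 and 259 in WT and at 507, 499, 431 and 726 in KO. The 4 WT libraries lay close together, and the lowest KO library, KO 3, stood well above the highest, WT 3. Its log2 fold change was 0.96 ± 0.16 (SE), and Neat1 passed in the limma fit on 16 libraries (adjusted p = 0.017). Ifi203, an interferon-inducible gene, averaged 6.84 ± 0.521 in WT and 11.3 ± 1.84 in KO, and Tut4, a terminal uridylyltransferase that acts on let-7 precursors, 3.63 ± 0.862 and 6.58 ± 0.135. Fgd5 and Jam2, both known from endothelial cells, stood at 6.71 ± 0.715 against 12.9 ± 3.25 and at 14.1 ± 0.678 against 20.7 ± 2.66. All 4 passed in the fit on 16 libraries (adjusted p from 0.0238 to 0.0275), as did Exoc3l (0.85), Magix (0.95) and Polr2h, a subunit shared by the RNA polymerases (0.57). Smco4 and Cpne2 had adjusted p of 0.0527 and 0.0726 in that fit. Gm42715 and Gm17139, 2 gene models without a name, completed the 12. Polr2h did not pass without WT 4, and Magix and Gm42715 passed in neither setting. The most abundant transcripts of Tut4 (587 bases) and Exoc3l (a retained intron of 625 bases) were short, so the values of both genes are uncertain.

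Genes of large change with separate groups and a mean of at least 5 TPM included, upward, Cyp2e1, a cytochrome P450 of ketone and ethanol metabolism. Cyp2e1 stood at 11.9, 9.01, 11.4 and 6.89 in WT and at 73.2, 28.2, 12.2 and 133 in KO. The KO values ran from 12.2 to 133, with KO 3 barely above WT 1, and the log2 fold change of 2.11 ± 0.645 had an adjusted p of 0.0849 in limma on 16 libraries. Slc9a3r2, a scaffold protein also called NHERF2, averaged 33.7 ± 11.2 in WT and 71.5 ± 21.2 in KO, and Gpr160, an orphan receptor, 3.51 ± 0.479 and 8.07 ± 2.79. Pam16, a motor subunit of the mitochondrial import machine, averaged 10.1 ± 3.61 and 24.4 ± 7.57. These 3 genes passed (adjusted p = 0.0307, 0.025 and 0.0447 on 16 libraries), while Noct, a rhythmic dinucleotide phosphatase, did not pass (log2 fold change 1.06, adjusted p = 0.0603). Slc9a3r2 did not pass without WT 4, and Pam16 passed in neither setting. Mdh1 was lower in KO by more than any of these, but its value rested on a short transcript, of 549 bases, and is uncertain, as are Apoo-ps, mt-Tf, Snord59a and Gm26397.

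**Figure D2:**
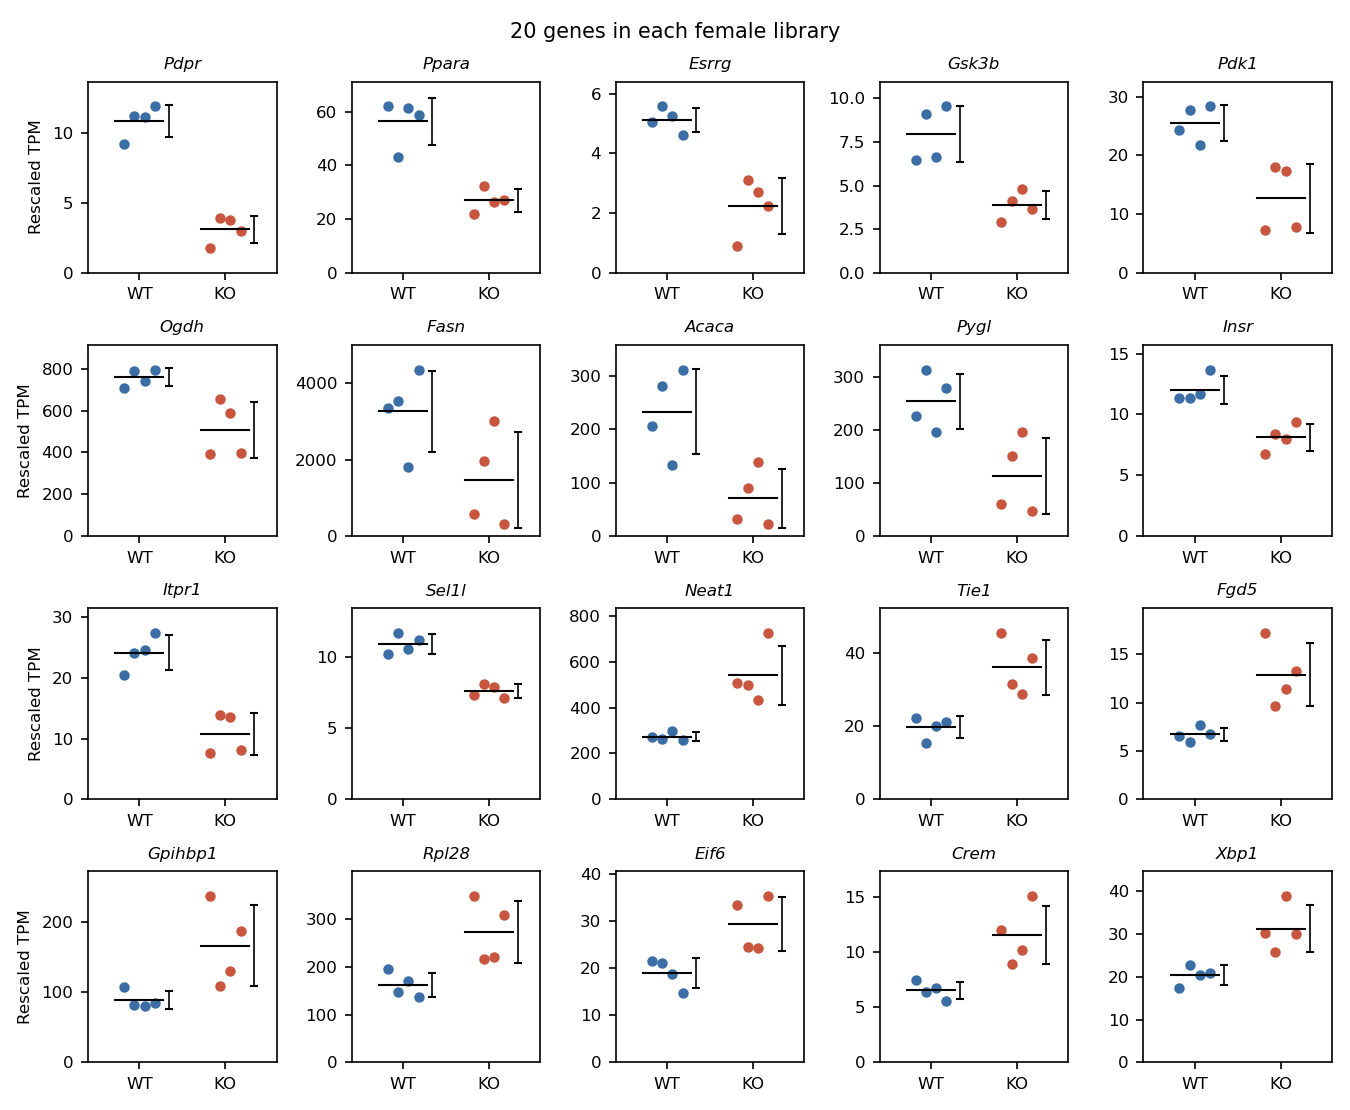
Rescaled TPM of 20 genes in the 8 female libraries, 1 point per library, with the mean (line) and SD (bar) of each group on a linear axis from 0. Pdpr, Ppara, Esrrg, Gsk3b and Itpr1 separate the groups downward and Neat1, Tie1, Fgd5, Rpl28 and Xbp1 upward, while in Fasn and Acaca KO 1 and KO 4 lie below every WT library and KO 3 lies within the WT range.

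Among lists with at least 10 genes tested, the lowest medians belonged to de novo lipogenesis (-1.10), structural non-coding RNAs (-1.02), pyruvate handling (-0.42), cholesterol synthesis (-0.38) and the TCA cycle (-0.34), and the highest to skeletal muscle (1.04), endothelial cells (0.65), pericytes and smooth muscle (0.59), cytosolic ribosomal proteins (0.48) and interferon-stimulated genes (0.42). Over the 21 alternatives of the fit these medians kept their sign, running from -1.33 to -0.84 for lipogenesis, 0.37 to 0.59 for ribosomal proteins, 0.46 to 0.76 for endothelial cells and 0.33 to 0.52 for interferon-stimulated genes, except that of skeletal muscle, which was -0.43 without KO 3, and that of structural non-coding RNAs, which was 0.10 without WT 4 and 0.15 with library weights. Brown adipocyte thermogenesis genes had a median of 0.13 and 15 of 24 with a higher mean, but at an unadjusted p under 0.05 on 8 libraries 0 were higher and 4 lower (9.98% and 10.4% of all genes). In bulk tissue, fewer cells of a type and less RNA per cell cannot be told apart.

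**Figure D3:**
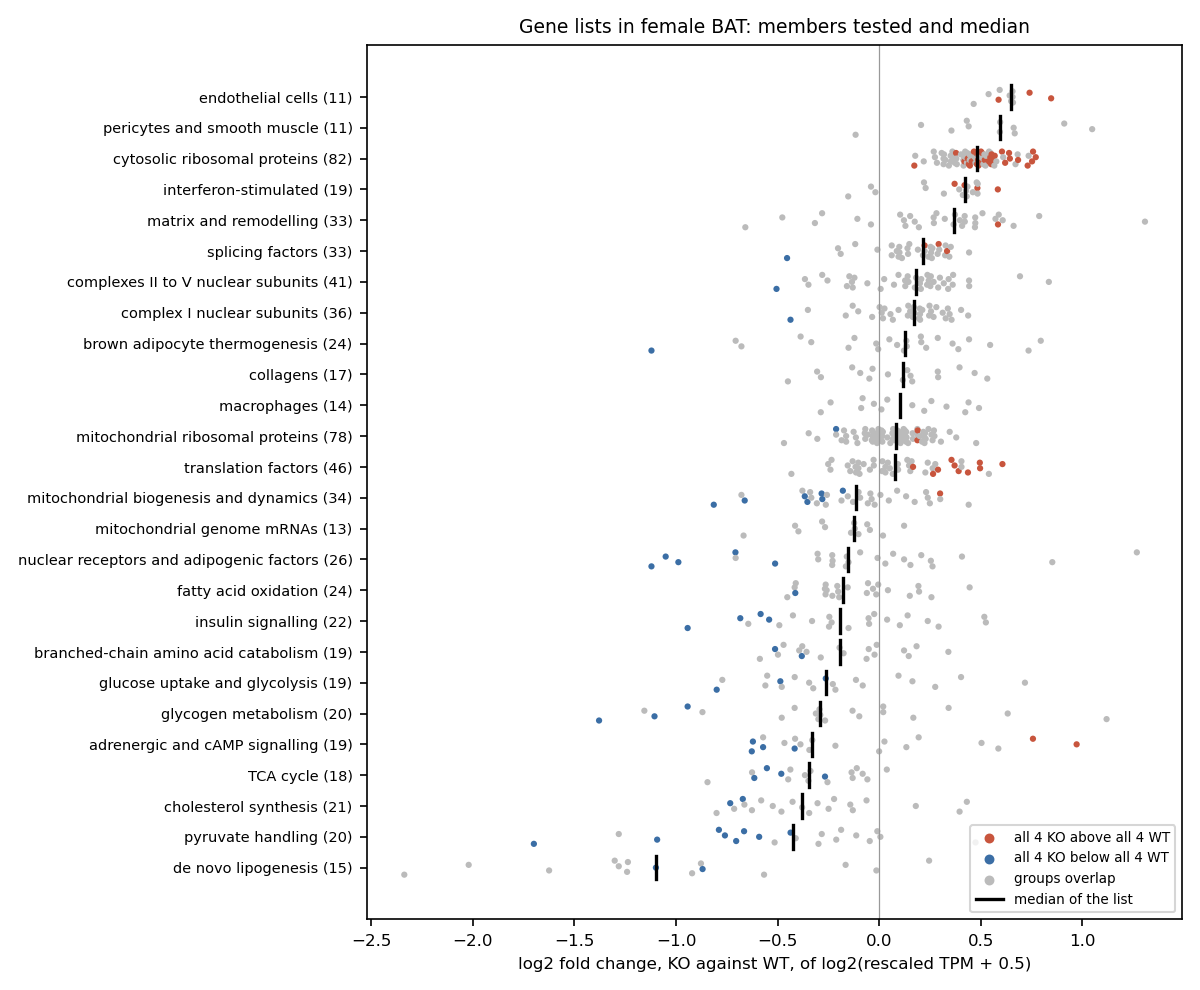
Log2 fold change of KO against WT for each tested member of 26 gene lists in female BAT (number tested in parentheses). Points are genes, coloured where all 4 KO libraries lie above (red) or below (blue) all 4 WT libraries, and black bars are medians. All 82 ribosomal protein genes and all 11 endothelial markers lie to the right of 0, and 14 of 15 lipogenesis genes to the left.

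De novo lipogenesis had the lowest median of the metabolic lists. Fatty acid synthase (Fasn) stood at 3367, 3547, 1819 and 4360 rescaled TPM in WT and at 565, 1956, 3023 and 313 in KO. Its most abundant transcript was annotated as a retained intron of 762 bases, so how far these values reflect the coding mRNA is uncertain. Acaca, the acetyl-CoA carboxylase that makes malonyl-CoA, stood at 206, 282, 133 and 312 in WT and at 30.9, 89.7, 140 and 22.2 in KO. In both, KO 1 and KO 4 lay far below every WT library while KO 3 lay within the WT range, and the log2 fold changes were -1.62 ± 0.681 and -2.02 ± 0.571 (SE). Me1, the malic enzyme that supplies NADPH, averaged 124 ± 38.4 in WT and 51.4 ± 20.02 in KO, and Acss2, which activates acetate, 91.1 ± 18.9 and 41.0 ± 23. Elovl6, which lengthens palmitate, was the named member whose groups were apart, at 80.8, 106, 54.9 and 89.7 in WT and at 35.2, 47.2, 52.7 and 42.3 in KO. Acly, the citrate lyase that delivers cytosolic acetyl-CoA, was named after its values were seen and had the lowest value of the list (-2.34). In all, 14 of 15 genes had a lower mean and 2 had separate groups (6.55% of all genes did). None of the 15 passed in either limma fit (on 16 libraries, 2.62% of all genes passed downward). At an unadjusted p under 0.05 on 8 libraries 11 were lower, as were 10.4% of all genes. The transcription factor genes Srebf1 and Mlxipl, whose products drive this programme and which were also named after their values were seen, stood at -0.57 and -0.01.

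The lipogenesis pattern was largest in KO 1 and KO 4. Averaged over its 15 genes, the log2 deviation from the 8-library mean was 0.36, 0.86, 0.10 and 0.73 in WT 1 to 4, -1.02 in KO 1, -0.06 in KO 2, 0.18 in KO 3 and -1.14 in KO 4. The share of nuclear protein-coding TPM held by these genes was 2.11%, 2.70%, 1.48% and 2.59% in WT and 0.569%, 1.36%, 1.92% and 0.475% in KO. KO 3 exceeded WT 3 on both measures, while KO 2 lay below every WT library on both, by less than KO 1 and KO 4. The names of the libraries carry a leading number that the labels leave unexplained (10 for WT 1 and KO 1, 8b for WT 2 to 4 and KO 3, 5 for KO 2 and 9 for KO 4). Within number 10, 1 library against 1, the median of the list was -1.41, and within 8b, 3 against 1, it was -0.42.

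**Figure D4:**
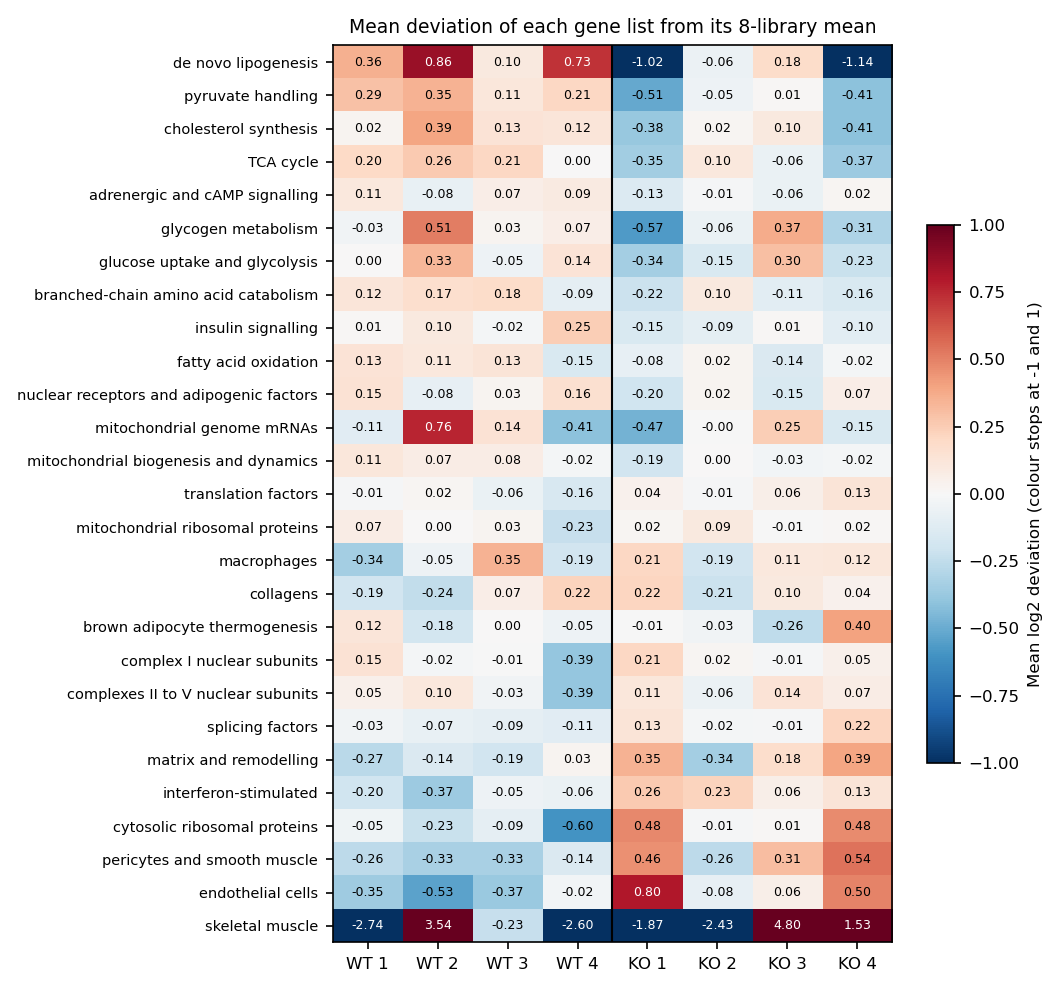
Mean log2 deviation of each gene list from its 8-library mean (columns: libraries; rows: lists; red above, blue below, the colour stopping at -1 and 1). KO 1 and KO 4 stand out from WT in lipogenesis (-1.02 and -1.14), endothelial cells (0.80 and 0.50) and cytosolic ribosomal proteins (0.48 in both), while KO 2 and KO 3 lie closer to the WT libraries in these lists.

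Promoters of 2 lipogenesis genes are shown for the CCAAT box, a binding motif of NF-Y, which stands here on the strand opposite to the gene's and so reads ATTGG, in capitals. Motifs were searched on both strands of the RefSeq windows of 300 bases, and overlaps with other motifs were kept. CCAAT was present in 8 of 13 lipogenesis windows (61.5%), 12 of 19 of pyruvate handling (63.2%) and 37.9% of all 27025 windows. It was also in 9 of 15 TCA cycle windows (60%), 20 of 61 of ribosomal proteins (32.8%) and 2 of 8 of endothelial markers (25%), so its share in lipogenesis is not particular to that list. The windows lie at chr2:155517958-155517987 on the plus strand (Acss2) and chr11:120824589-120824618 on the minus strand (Fasn), in GRCm38.p6, the build of the RefSeq table.
Acss2: gccctacccactATTGGatgcctagagcac
Fasn: cctcggtgtccaATTGGtttcgatgtggag

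Pyruvate handling was lowest in the same libraries, with mean deviations of -0.51 in KO 1 and -0.41 in KO 4 against -0.05 and 0.01 in KO 2 and KO 3. Of 20 genes tested of 21 listed, 18 had a lower mean in KO, 8 had separate groups, downward as in 6.55% of all genes, and 2 passed downward in the limma fit on 16 libraries (2.62% of all genes). Pdk1, a kinase that inhibits pyruvate dehydrogenase, stood at 24.4, 27.7, 21.7 and 28.3 in WT and at 7.33, 18.1, 17.3 and 7.87 in KO, while Pdpr, which restrains the phosphatase that opposes this kinase, was the lowest member. Pdhx, which anchors a subunit of the complex, averaged 57.4 ± 4.43 and 38.8 ± 9.86 and was lower in KO (adjusted p = 0.0492). The muscle-type pyruvate kinase gene Pkm averaged 865 ± 67.1 in WT and 558 ± 198 in KO, with separate groups. Pdhx passed in neither setting. CACGTG was present in 6 of 19 windows of this list (31.6%) and in 7.24% of all 27025 windows.

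In the TCA cycle, 17 of 18 genes had a lower mean and 4 had separate groups, downward as in 6.55% of all genes. Ogdh, a subunit of 2-oxoglutarate dehydrogenase, stood at 707, 791, 743 and 796 in WT and at 393, 655, 590 and 395 in KO, and was lower in KO (log2 fold change -0.61 ± 0.183, adjusted p = 0.0486 on 16 libraries), but passed in neither setting. Citrate synthase (Cs) averaged 792 ± 34 and 577 ± 131, and Suclg2, a succinyl-CoA synthetase subunit, 76.4 ± 9.29 and 52.4 ± 10.2. Their groups were apart, and their adjusted p in that fit was 0.0511 each.

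Glycogen and glucose genes had lower means on balance. Of 20 glycogen genes 14 had a lower mean, with a median of -0.29. Liver-type glycogen phosphorylase (Pygl) stood at 227, 315, 197 and 279 in WT and at 60.8, 151, 197 and 46.9 in KO, where KO 3 came to just below WT 3. Gsk3b, a kinase that inhibits glycogen synthase, averaged 7.95 ± 1.61 and 3.89 ± 0.798. Gsk3b was lower in KO (adjusted p = 0.025 on 16 libraries) and Pygl did not pass (0.0603). In glycolysis and glucose uptake, 14 of 19 tested genes had a lower mean, and Pfkfb2, which makes the activator of phosphofructokinase, was lower in KO (3.79 ± 0.487 against 1.98 ± 0.411, adjusted p = 0.017). Muscle-type phosphorylase (Pygm), a skeletal muscle transcript named after its values were seen, was the highest gene of the glycogen list at 1.12.

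Insulin signalling had a median of -0.19, which was -0.07 with the length and GC trend removed, and its transcripts are long (median 6230 bases). The insulin receptor (Insr) stood at 11.3, 11.4, 11.7 and 13.7 in WT and at 6.73, 8.38, 7.98 and 9.40 in KO. Irs1, its docking protein, averaged 2.35 ± 0.409 and 1.40 ± 0.284. Neither gene's groups overlapped, and both were lower in KO (log2 fold change -0.54 and -0.58, adjusted p = 0.025 and 0.0433 on 16 libraries). Insr did not pass with the trend removed, and Irs1 passed in neither setting. Mtor had separate groups at 29.0 ± 3.56 and 18.3 ± 5.07 and an adjusted p of 0.0603. Over the list, 15 of 22 genes had a lower mean, 3 passed downward and 1 upward in the fit on 16 libraries (2.62% and 2.03% of all genes), the last being Grb10, an inhibitor of the insulin receptor (named after its values were seen).

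Adrenergic and cAMP signalling genes went both ways. The α1A-adrenergic receptor (Adra1a) stood at 23, 17.6, 19.5 and 19.5 in WT and at 10.7, 14.6, 16.1 and 10.3 in KO, and was lower in KO (log2 fold change -0.62, adjusted p = 0.0379 on 16 libraries). Crem, a cAMP-responsive transcription factor that includes the repressor ICER, stood at 7.47, 6.35, 6.77 and 5.61 in WT and at 12.1, 8.98, 10.2 and 15.1 in KO. Adcy4, an adenylyl cyclase, averaged 8.46 ± 2.35 and 17.6 ± 6.69. Crem and Adcy4 were higher in KO (adjusted p = 0.025 and 0.0464) with separate groups. Atf2, a transcription factor downstream of p38 kinase, averaged 15.8 ± 0.249 and 10.3 ± 2.34 with separate groups and an adjusted p of 0.052. Over the list, 11 of 19 tested genes had a lower mean, with a median of -0.33 (-0.12 with the trend removed). Adra1a and Adcy4 passed in neither setting.

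Among nuclear receptors and adipogenic factors, 4 of 26 tested genes passed downward and none upward on 16 libraries, against 2.62% and 2.03% of all genes. Esrrg, the orphan receptor ERRγ of oxidative metabolism, stood at 5.05, 5.58, 5.27 and 4.62 in WT and at 0.906, 3.10, 2.69 and 2.25 in KO. Sox5 averaged 2.17 ± 0.573 and 0.831 ± 0.177, and its relative Sox6 8.74 ± 1.28 and 5.19 ± 1.06. With Ppara these 3 genes passed (adjusted p from 0.0238 to 0.0345 on 16 libraries), and in each of them the groups were apart. Sox6 did not pass with the trend removed, and Esrrg passed in neither setting. Pparg, the master regulator of adipocytes, stood at 134.8 ± 14.5 and 122 ± 16.7, and the thermogenic coregulator Prdm16 at 5.73 ± 1.88 and 5.15 ± 1.13. The oestrogen receptor gene Esr1 was at 3.28 ± 0.229 and 3.01 ± 1.06, and its groups overlapped. In the thermogenesis list Esrrg was the gene that passed. Dio2, which activates thyroid hormone, ranged from 5.39 to 23.1 in WT and from 5.14 to 50.2 in KO, and the most abundant member Cox8b from 1812 to 3478 and from 2842 to 4577, with overlapping groups in both.

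Of nuclear genes of the respiratory chain, 30 of 36 complex I subunits and 30 of 41 subunits of complexes II to V had a higher mean in KO (medians 0.17 and 0.18), where 50.7% of all genes did. At an unadjusted p under 0.05, however, 0 complex I subunits were higher and 2 lower, and of complexes II to V 1 was higher and 4 lower (9.98% and 10.4% of all genes). In each list 1 gene had separate groups downward (6.55% of all genes) and none upward (5.35%). Without WT 4 these medians were 0.07 and 0.08, and with the trend with transcript length and GC content removed 0.02 and 0.08. Ndufs1, the largest subunit of complex I, went the other way at 279 ± 34.2 in WT and 206 ± 21.8 in KO, as did Uqcrc2, a core subunit of complex III, at 636 ± 91.5 and 451 ± 83.8, both with separate groups. Opa1, the inner membrane fusion GTPase, stood at 41.4, 53.9, 46.2 and 42.1 in WT and at 18.3, 33.8, 33.4 and 21.2 in KO, and Gabpa, an ETS factor of nuclear genes for mitochondrial proteins, averaged 21.7 ± 4.11 and 13.5 ± 2.18. Opa1 and Gabpa were lower in KO (adjusted p = 0.0419 and 0.0307), and passed in neither setting. The fission adaptor gene Fis1 had separate groups upward (47.7 ± 2.16 and 59.1 ± 6.02) and did not pass (adjusted p = 0.0659).

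Of 24 fatty acid oxidation genes 18 had a lower mean, with a median of -0.18. Separate groups downward were found in 1, where 6.55% of all genes had them, and 5 had an unadjusted p under 0.05 downward on 8 libraries, where 10.4% of all genes did. None passed in limma on 8 or 16 libraries (on 16, 2.03% of all genes passed upward and 2.62% downward). Acadm, the medium-chain acyl-CoA dehydrogenase, averaged 1007 ± 130 in WT and 743 ± 152 in KO with overlapping groups, and Etfdh, which passes its electrons to ubiquinone, 388 ± 41.8 and 292 ± 40.4 with separate groups. Cpt1b, the carnitine palmitoyltransferase of brown fat, stood at 429 ± 42.9 and 428 ± 46.1. In branched-chain amino acid catabolism 15 of 19 tested genes had a lower mean (median -0.19), and Acadsb, the short branched-chain acyl-CoA dehydrogenase, was lower in KO (98.3 ± 12.3 against 69.1 ± 11.2, adjusted p = 0.0449 on 16 libraries) but passed in neither setting.

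Lipid storage and uptake genes did not share 1 direction. Lpin1, a phosphatidate phosphatase and coactivator of PPARα, stood at 23.6, 42.7, 36.6 and 56.2 in WT and at 10.4, 27.3, 8.02 and 13.2 in KO. Lpin1 was lower in KO (log2 fold change -1.49 ± 0.382, adjusted p = 0.0445 on 16 libraries), although KO 2 exceeded WT 1. Gpd1, which makes glycerol 3-phosphate, averaged 2785 ± 418 and 1573 ± 606, and hormone-sensitive lipase (Lipe) 639 ± 83.4 and 481 ± 45.2, with separate groups in both and adjusted p of 0.0566 and 0.0511. Vldlr, a receptor for triglyceride-rich lipoproteins, was lower in KO (25.5 ± 1.51 against 16.9 ± 2.19, adjusted p = 0.025), and Gpihbp1, which holds lipoprotein lipase on capillary endothelium, was higher in KO (88.7 ± 12.8 against 166 ± 57.8, adjusted p = 0.04). Vldlr did not pass with the trend removed, and Lpin1 and Gpihbp1 passed in neither setting. Cholesterol synthesis had 18 of 21 genes with a lower mean, of which 2 had separate groups (6.55% of all genes did), Nsdhl among them (15.4 ± 4.01 against 9.46 ± 2.30). None passed in either limma fit (on 16 libraries, 2.03% of all genes passed upward and 2.62% downward). At an unadjusted p under 0.05 on 8 libraries 9 were lower and 1 higher (10.4% and 9.98% of all genes). Leptin (Lep) ranged from 5.89 to 77.7 in WT and from 1.52 to 31.4 in KO, lowest in KO 1 and KO 4.

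All 82 cytosolic ribosomal protein genes had a higher mean in KO, with a median of 0.48, where 50.7% of all genes had a higher mean. In 35 of them every KO library lay above every WT library, against 5.35% of all genes, and 8 passed upward in the fit on 16 libraries, against 2.03%. Rpl28 stood at 195, 147, 170 and 137 in WT and at 347, 217, 220 and 307 in KO, and Fau, whose product includes the small-subunit protein eS30, at 178, 130, 180 and 122 and at 308, 211, 195 and 325. KO 1 and KO 4 were again the highest libraries, and WT 4 the lowest, with a mean deviation over the list of -0.60. Rpl28, Fau, Rps20 (0.68) and Rpl8 (0.46) were higher in KO (adjusted p = 0.04, 0.0486, 0.0449 and 0.0486), and none of the 4 passed without WT 4 or with the trend removed. Ribosomal protein mRNAs are short, with a median of 583 bases in this list, and the log2 fold change over 10800 genes ran with length (Spearman's rho -0.30) and with GC content (0.33), a description across genes, which are not replicates. The list's median was 0.38 with that trend removed, and 0.37 without WT 4. These genes have many processed pseudogenes, so reads may be divided among copies.

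The start of ribosomal protein mRNAs is shown for the pyrimidine tract by which their translation is known to be controlled. CTTT beginning within 10 bases of the start, on the gene's own strand and in capitals here, was present in 17 of 61 windows of the list (27.9%) and in 9.24% of all 27025 windows. The ETS motif CGGAAG, searched on both strands, stood in 42 of the 61 (68.9%), in 9 of 15 TCA cycle windows (60%) and in 17.2% of all windows. The sequences are at chr7:4792951-4792980 (Rpl28) and chr19:6057933-6057962 (Fau), both on the plus strand of GRCm38.p6.
Rpl28: cgcctctcgtgtctctCTTTccgtctccgg
Fau: gcgcgcccccacttcttcctCTTTcttgac

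Of 46 translation factors 30 had a higher mean (median 0.08, and 0.04 without WT 4). Separate groups were found upward in 10 (5.35% of all genes) and downward in none (6.55%), and 4 passed upward in the fit on 16 libraries (2.03%). Eif6, which keeps the large subunit free until it is mature, stood at 21.6, 21.1, 18.8 and 14.7 in WT and at 33.4, 24.6, 24.2 and 35.3 in KO. Eif2b4, a subunit of the exchange factor for eIF2, averaged 16.6 ± 1.97 and 23.7 ± 2.89, and Eif3g 27.1 ± 1.92 and 35.2 ± 2.68. All 3 were higher in KO (adjusted p = 0.0449, 0.0388 and 0.0345) and passed in neither setting. Mitochondrial ribosomal proteins had a median of 0.08, with 51 of 78 genes higher, and it was -0.01 without WT 4. Among 33 splicing factors 28 had a higher mean, Sf3a1 was higher in KO (6.44 ± 0.666 against 8.23 ± 0.468, adjusted p = 0.0449) and Prpf8, the core protein of the spliceosome, was lower in KO (31.8 ± 1.88 against 23.2 ± 3.01, adjusted p = 0.0353). Sf3a1 did not pass without WT 4, and Prpf8 passed in neither setting.

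The unfolded protein response held genes on both sides. Xbp1, its spliced transcription factor, stood at 17.4, 22.9, 20.5 and 20.9 in WT and at 30.2, 25.8, 38.8 and 29.99 in KO, and was higher in KO (log2 fold change 0.59 ± 0.14, adjusted p = 0.025 on 16 libraries). Sel1l, the adaptor of the degradation ligase in the endoplasmic reticulum, stood at 10.2, 11.7, 10.6 and 11.2 in WT and at 7.31, 8.14, 7.89 and 7.13 in KO. The sensor Atf6 averaged 6.94 ± 0.408 and 5.07 ± 0.45. Sel1l and Atf6 were lower in KO (adjusted p = 0.025 and 0.0382), and the groups were apart in all 3 genes. KO 3 had the highest Xbp1 of the 8 libraries. Sel1l did not pass with the trend removed, and Atf6 passed in neither setting. Over the list of 22 genes, 14 had a higher mean and the median was 0.10. In the proteasome, Psme4, an activator cap, was lower in KO (15.5 ± 2.18 against 10.4 ± 1.78, adjusted p = 0.04, not passed in either setting) while 28 of 38 genes had a higher mean. The integrated stress response list, of which Gdf15 is a member, had 10 of 21 tested genes higher and a median of -0.01.

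All 11 tested of 13 listed endothelial markers had a higher mean in KO, with a median of 0.65, and Lyve1 and Prox1, which mark lymphatic endothelium, lay below the minimum. Tie1, an endothelial receptor tyrosine kinase, stood at 22.1, 15.4, 19.97 and 21.2 in WT and at 45.4, 31.3, 28.7 and 38.6 in KO, and Cdh5, the cadherin of endothelial junctions, at 43.7, 41.5, 47.9 and 62.0 and at 112, 64.3, 68.3 and 87.1. Tie1 and Cdh5 were higher in KO (log2 fold change 0.85 and 0.74, adjusted p = 0.0253 and 0.0388 on 16 libraries) with separate groups. Pecam1 averaged 40.1 ± 2.92 and 62.7 ± 18.6 with KO 2 just below WT 4. Summed over the list, rescaled TPM were 348, 299, 334 and 449 in WT and 797, 440, 458 and 608 in KO. Within the library-name numbers the list's median was 1.16 for number 10 and 0.33 for 8b.

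Mural cell and matrix genes leaned the same way in part. Of 11 pericyte and smooth muscle markers 10 had a higher mean (median 0.59). Rgs5 averaged 81.9 ± 5.14 and 112 ± 18, and Kcnj8, a potassium channel of pericytes, 8.63 ± 1.67 and 14.1 ± 3.70. Rgs5 and Kcnj8 were higher in KO (adjusted p = 0.0347 and 0.04), although in each a KO library reached the WT range. Cxcl12, a chemokine of stromal and endothelial cells, stood at 24.4, 22.8, 22.4 and 25.1 in WT and at 54.7, 30.5, 36.0 and 47.4 in KO, and Sparcl1, a matricellular protein of vessels, averaged 65.2 ± 3.20 and 99.8 ± 22.5. Cxcl12 and Sparcl1 were higher in KO (adjusted p = 0.0307 and 0.0315) with separate groups. Rgs5 did not pass without WT 4, and Kcnj8 and Sparcl1 passed in neither setting. Matrix and remodelling genes had 27 of 33 tested genes higher (median 0.37), whereas collagens had 10 of 17 (median 0.12). No collagen had separate groups, which 5.35% of all genes had upward and 6.55% downward. None passed in limma on 8 or 16 libraries (on 16, 2.03% of all genes passed upward and 2.62% downward). At an unadjusted p under 0.05 on 8, 3 collagens were higher, as were 9.98% of all genes. Col1a1 stood at 12.1 ± 4.14 and 12.4 ± 3.57.

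Macrophage markers lay near the background. Of 14 tested of 18 macrophage markers 9 had a higher mean, and the median was 0.10. None passed in limma on either set of libraries (on 16, 2.03% of all genes passed upward and 2.62% downward). At an unadjusted p under 0.05 on 8, none of the markers was higher or lower (9.98% and 10.4% of all genes). Their most abundant gene Lyz2 averaged 34.5 ± 14.9 and 37.0 ± 8.55, and the defining marker Adgre1 2.05 ± 0.819 and 1.59 ± 0.295. Interferon-stimulated genes had 16 of 19 tested genes with a higher mean and a median of 0.42, and 4 of them had separate groups, all upward (5.35% of all genes). Of these, Ifit1 stood at 1.84, 1.70, 1.6 and 1.5 in WT and at 2.35, 2.91, 2.60 and 2.24 in KO. Oas1a averaged 0.992 ± 0.227 and 1.72 ± 0.153. No gene of the list passed in limma on 8 or 16 libraries (on 16, 2.03% of all genes passed upward). At an unadjusted p under 0.05 on 8, 9 differed, all upward (9.98% of all genes). The interferon list had a positive mean deviation in all 4 KO libraries (0.26, 0.23, 0.06 and 0.13) and a negative one in all 4 WT libraries.

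The calcium release channels Itpr1 and Ryr2 were lower in KO. Itpr1, the type 1 inositol trisphosphate receptor, stood at 20.4, 24.1, 24.6 and 27.4 in WT and at 7.55, 13.9, 13.5 and 8.12 in KO (log2 fold change -1.17 ± 0.212, adjusted p = 0.025 on 16 libraries). Ryr2, a ryanodine receptor, averaged 2.17 ± 0.71 and 0.742 ± 0.17 (adjusted p = 0.0307, not passed without WT 4). Both had separate groups, and their list, creatine and calcium cycles, split into 7 higher and 7 lower, its upper end held by the muscle genes Ckm and Atp2a1. In those, as in Acta1, WT 2 and KO 3 were the highest libraries. The clock gene Clock was lower in KO (5.88 ± 0.407 against 4.16 ± 0.242, adjusted p = 0.0367), whereas Per2 ranged from 0.965 to 3.45 in WT and from 2.94 to 14 in KO, and of 18 tested clock genes 12 had a lower mean. The chromatin cofactors Kmt2c, a histone methyltransferase, and Ncoa2, a nuclear receptor coactivator, were lower in KO (adjusted p = 0.0367 and 0.0472). Clock, Kmt2c and Ncoa2 passed in neither setting.

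Neighbours of Ucp1 on chromosome 8 were examined because the Cre transgene was built from the Ucp1 locus. Elmod2, a GTPase-activating protein of ARL2 that lies next to Ucp1, stood at 4.48, 6.05, 4.82 and 5.67 in WT and at 6.84, 6.64, 7.84 and 13 in KO. All KO values lay above all WT values, and Elmod2 was higher in KO (log2 fold change 0.62 ± 0.207, adjusted p = 0.0486 on 16 libraries). Scoc was at 28.1 ± 6.07 and 21 ± 4.86, Rnf150 at 3.70 ± 0.908 and 2.01 ± 0.919, Zfp330 at 10.3 ± 0.468 and 10.5 ± 0.491 and Tbc1d9 at 2.50 ± 0.724 and 3.11 ± 0.72, with overlapping groups in each. Mgat4d and Clgn lay below 0.05 rescaled TPM in every library. Elmod2 did not pass without WT 4. Whether the transgene contributes to Elmod2 was not tested.

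The same contrast in the 8 male libraries allowed a test of whether the KO effect differed between the sexes. In limma on 16 libraries, 0 of 12215 genes passed an adjusted p of 0.05 for the interaction, or 0% (the smallest was 0.184), and 1100 genes (9.01%) were higher and 1218 (9.97%) lower in the female contrast at an unadjusted p under 0.05. Genes of smallest interaction p included Hk1, the widely expressed hexokinase, at -0.49 ± 0.132 in females and 0.58 ± 0.132 in males (unadjusted p = 5.79e-05), Neat1 at 0.96 and -0.08 (1.14e-04) and Fcor, an adipose-expressed inhibitor of FOXO1, at 0.53 ± 0.162 and -0.45 ± 0.0961 (1.36e-04). Vmn2r-ps54 and Lrrc25 completed the 5, through male log2 fold changes of 3.01 and 2.27. Female and male log2 fold changes were -1.70 and -0.92 for Pdpr, -1.05 and -0.56 for Ppara, -0.80 and -0.66 for Pfkfb2, -0.54 and -0.49 for Insr and 0.62 and 0.80 for Elmod2. In the limma fit on the 8 male libraries the adjusted p was 0.0705, 0.226, 0.0495, 0.0859 and 0.0343, so that Pfkfb2 and Elmod2 passed there.

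By list, medians in females and males stood on opposite sides of 0 for lipogenesis (-1.10 and 0.41), pyruvate handling (-0.42 and 0.12), ribosomal proteins (0.48 and -0.14) and interferon-stimulated genes (0.42 and -0.15). Endothelial markers had medians of 0.65 and 0.15. Macrophage markers and collagens had medians of 0.10 and 0.12 in females and of 0.78 and 0.74 in males. The male values of Col1a1, Col1a2, Timp2, Fn1 and Cd68 were 1.14, 0.84, 0.79, 1.16 and 1.04, where the female values were 0.04, 0.16, 0.27, 0.32 and 0.26. No gene passed the interaction test, so these values stand side by side without a shown difference between the sexes.

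**Figure D5:**
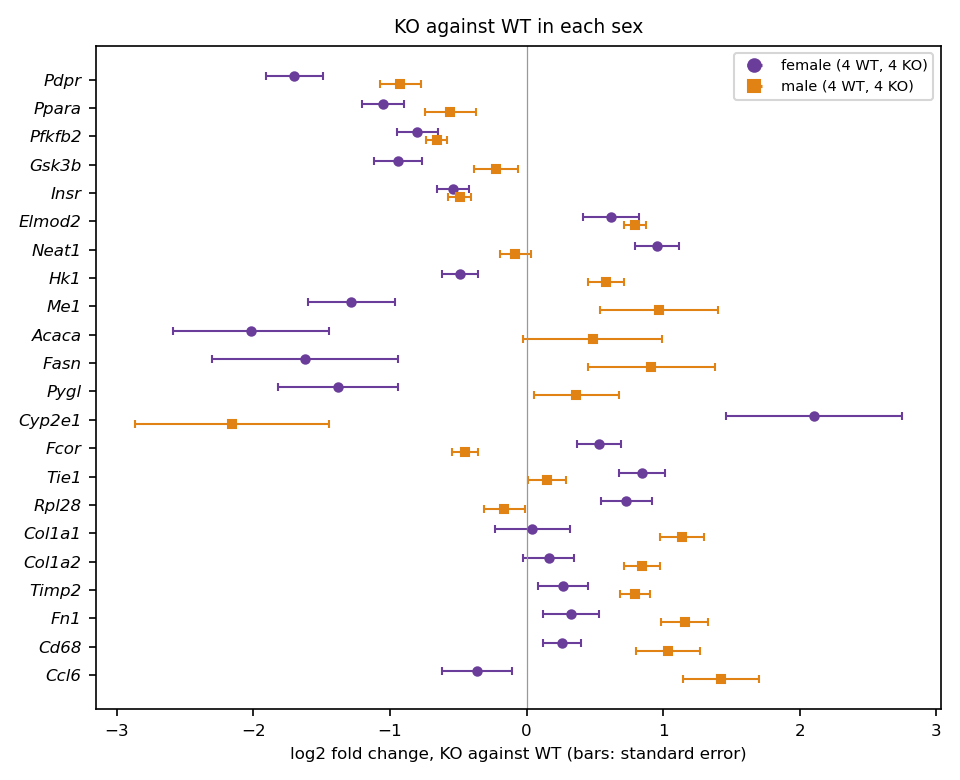
Log2 fold change of KO against WT with its SE in females (circles) and males (squares) for 22 genes, each from the limma fit on the 8 libraries of that sex. Pdpr, Ppara, Pfkfb2, Gsk3b and Insr lie left of 0 and Elmod2 right of 0 in both sexes, whereas Hk1, Me1, Acaca, Fasn, Pygl and Ccl6 lie left of 0 in females and right in males, and Cyp2e1 and Fcor the reverse.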

How the data were processed

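RNA of BAT was measured in 16 mRNA libraries, 4 of each sex and genotype, of which the 8 female ones were compared. The authors quantified single-end reads per transcript with kallisto 0.46.2 (the submitters' processing notes give GRCm39) and deposited TPM values, which sum to the same total in every library. Read depth is therefore unknown and limits precision to what the spread between libraries shows, and the count model that the authors used could not be run. Here TPM were summed per gene: 135107 of 137438 transcripts were matched to GENCODE M21, an annotation of GRCm38, and 2331 were not. Gene TPM were divided by median-of-ratios factors. Genes with a mean of at least 1 were tested with limma 3.58.1 (R 4.3.3, lmFit and eBayes with a trend) on log2(rescaled TPM + 0.5), two-sided, with Benjamini-Hochberg adjustment over all genes and a threshold of 0.05. Gdf15 and the library shares were compared by exact permutation. The 4 libraries of a group carry replicate numbers, but the labels do not say how they were sampled, so p-values measure the spread between these libraries.

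Members, gene lists and the rule for named genes were chosen with earlier results of these data known. The rule took 31 genes that the study names, Gdf15 among them, some of which it chose on these samples, so that their values are no independent evidence, sex chromosome genes, up to 12 genes each way with separate groups by smallest p, up to 6 each way by size of change at a mean of at least 5 TPM, the 4 members of smallest p and the most abundant member of each list, the 5 genes of smallest interaction p, neighbours of Ucp1 and the 5 most abundant genes of each library. Not every gene that the rule takes is described, and some are not reported here. Alternatives changed the scaling, pseudocount, minimum, variance model, covariates, samples, and length and GC trend. The fit was tested on data simulated for KO against WT in females (12150 genes, 200 changed): at a log2 change of 1 it called a median of 131 changed and 5 unchanged genes, at 2 it called 168 and 10, and with no change 0. The simulated noise was independent between genes and lacked the differences that many genes of a library share here. The simulation therefore checks the code and cannot show the power or the false calls of the fit in these libraries. Skeletal muscle markers and RNA classes were summed per library. Males entered the interaction and the spread of the fit on 16 libraries. Promoter windows and their positions are from RefSeq on GRCm38.p6. The first window listed for each gene was searched and the windows of 1 chromosome were left out, so 27025 counts those that remained.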

Additional observations from a re-analysis of the deposited data

Results flagged for a closer look

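Within each group of 4 libraries, a library was singled out where its gap to the nearest of the others, as a share of the group's range, passed the 95% critical value of Dixon's test. This was tested for 142 values in 284 groups and singled out 18, where chance gives about 1 in 20 groups, and WT 4 held 7 of them. Mir6236 was at 79663 rescaled TPM in WT 4 against 347 to 535 in the other WT libraries, Rn7s1 at 1988 against 8.21 to 11.3, unmatched transcripts at 17.7% of TPM against 0.343% to 0.442%, and other non-coding RNA at 9.01% against 0.975% to 1.40%. In the same library Insr was at 13.7 against 11.3 to 11.7, Pecam1 at 44.5 against 38.3 to 38.9, and Polr2h at 7.14 against 9.11 to 9.46.

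The other cases were scattered over 6 libraries. Acss2 was at 63.1 in WT 3 against 96.9 to 104 in the other WT libraries, and Ppara at 43.2 in WT 2 against 58.8 to 61.9. In WT 1, Arfgef2 was at 10.3 against 11.5 to 11.6 and Timp2 at 5.15 against 6.90 to 7.31. The unnamed gene model Gm17139 was at 1.32 in WT 2 and at most 0.00129 in the other WT libraries. In KO 1, Jam2 was at 24.6 against 19.2 to 19.4 in the other KO libraries and Prdm16 at 3.48 against 5.49 to 5.91, and the short mt-Tf was at 26.6 and listed at 0 in the others. Smco4 was at 14.99 in KO 2 against 11.4 to 12. In KO 3 Snord59a was listed at 0 against 26.6 to 44 in the other KO libraries, and Gdf15 stood at -0.787 on the scale of log2(TPM + 0.5), where a TPM of 0 is -1.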

How the results depend on the processing

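The fit on 8 libraries was repeated under 21 alternatives and the fit on 16 under 20. Among 135 genes named in the text the direction of the log2 fold change and the side of the threshold held in 2700 comparisons, 77 passed where the fit on 8 libraries had not, and 32 changed sign. Since no gene passed in the main fit on 8 libraries, holding the side of the threshold meant not passing again, so the 2700 speak for direction only. Of 52 gene lists, 27 had no change of sign of their median under any alternative that gave one (mesothelium had 18, neutrophils and mast cells 20). On 8 libraries, 0 genes passed the adjusted threshold, against 0 to 13 without 1 library: Gm17139 without WT 2, Mir3058, Gm26109 and Hipk2 without WT 4, mt-Tf and Pdpr without KO 1, and 13 without KO 2. The number that opens each library name as a covariate gave 6 (Mir145a, Mir7013, Mir7651, Gm48981, Gm5537 and Zbtb18), leaving out WT 2 and KO 3 together, which hold the most skeletal muscle RNA and were chosen after seeing the data, gave 2 (Gm22965 and AC123659.1), and the spread of all 16 libraries gave 568. These names were read off after their values were seen. At an unadjusted p under 0.05, the covariate gave 777 higher and 793 lower, the TPM as deposited 662 lower (68.1% of calls higher, against 48.9%), and a minimum of 5 TPM, which tests fewer genes, 806 lower. Without 1 library the counts ran from 660 to 1523 higher and from 730 to 1565 lower. Genes with separate groups, which fewer libraries make more frequent by construction, were 698 to 1255 upward and 881 to 1334 downward without 1 library, 1330 and 1412 without WT 2 and KO 3, and downward 387 as deposited and 472 at a minimum of 5 TPM. The fit on 16 libraries called 568 genes, 2 to 1942 without 1 library, 5 as deposited, 29 with no minimum, 3 with the covariate, 125 with the length and GC trend removed, and 2 (Pdpr and Gm20431) without WT 2 and KO 3. The interaction gave 0 to 1 genes without 1 library, the 1 being without WT 4. Where no value shows the cause of such a change, the cause was not tested.

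Replicate numbers did not pair the libraries: deviations from the group means correlated by 0.148, -0.103, -0.0639 and 0.0631 for numbers 1 to 4, and number 1 alone matched its own number best. With the replicate block, 0 genes passed on 8 libraries, 1301 were higher and 1324 lower at an unadjusted p under 0.05, and the fit on 16 libraries called 382.

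Without 1 library, the Gdf15 difference ran from -0.54 to -0.36, the first without WT 1 with an exact permutation p of 0.0286. The difference in percent of TPM ran from -5.56 to 2.62 for the mitochondrial genome, from -2.51 to 0.163 for other non-coding RNA and from 3.08 to 4.96 for pseudogenes (exact permutation p of 0.0286 to 0.143, the smallest without KO 2). That of ribosomal protein mRNAs ran from 1.24 to 1.82, with exact permutation p of 0.0857 to 0.143 without any 1 WT library and 0.0286 without any 1 KO library.

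Sign changes of log2 fold changes were these. As deposited, Cpt1b was 0.10 and Mlxipl 0.093. With library weights Col1a1 was -0.024, Lyz2 -0.24, Mlxipl 0.17 and Prdm16 0.095. With the covariate Ccl6 was 0.020 and Ucp1 -0.063. With the length and GC trend removed Esr1 was 0.037 and Prdm16 0.025. Without WT 2 and KO 3 Col1a1 was -0.21 and Cpt1b 0.0014. Without 1 library the ranges were -0.14 to 0.22 for Col1a1, -0.078 to 0.075 for Cpt1b, -0.010 to 0.41 for Lyz2, -0.11 to 0.17 for Mlxipl, -0.22 to 0.068 for Prdm16 and -0.32 to 0.037 for Esr1. Mir6236 ran from -2.32 to 0.29 and Rn7s1 from -2.52 to 0.089, the higher value without WT 4. The muscle genes Acta1 (-0.22 to 3.54), Atp2a1 (-0.12 to 3.22) and Ckm (-0.44 to 3.22) were lowest without KO 3.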
